A study of Mus musculus with 12 samples.

Results

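The 34 genes described here take up fatty acids into heart muscle cells, carry them into mitochondria and oxidise them there, or regulate that pathway. They were chosen by name from the deposited count table of 22794 genes. Counts in 33 of the 34 were high enough to be tested. *Slc27a6*, a fatty acid transporter, had between 0 and 4 counts in each library, too few for a test. The data are RNA-seq of cardiomyocytes isolated from wild-type mice of strain C57BL6, 16 weeks after surgery, in 12 libraries. The mice had either a sham operation or a 5/6 nephrectomy (NX), which removes most of the kidney mass. After each operation they were injected with saline or with JV101, which gives 4 groups of 3 libraries: sham saline, sham JV101, NX saline and NX JV101. The labels do not say what JV101 contains, when or at what dose it was given, nor the age or sex of the mice. The title of the series speaks of gene therapy that recaps telomeres in cardio-renal syndrome. Nothing in the labels ties the replicates to separate mice, so the p-values hold for the spread among these libraries, which may be technical.

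The adult heart obtains most of its energy from fatty acids. Lipoprotein lipase frees them from circulating triglyceride, transport proteins and a fatty acid binding protein take them to acyl-CoA synthetase, and the carnitine shuttle moves the activated chains across the inner mitochondrial membrane. Malonyl-CoA restrains the entry step. Inside, acyl-CoA dehydrogenases, a hydratase, a hydroxyacyl-CoA dehydrogenase and a thiolase shorten the chain by one acetyl-CoA in each round. The nuclear receptors PPARα and ERRα, with the coactivator PGC-1α, regulate transcription of these genes.

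Since 3 of the members are such regulators, the promoters of the members were searched for the hexamer AGGTCA, the core sequence that nuclear receptors of this class bind. RefSeq promoters (GRCm38.p6, 250 bases before to 50 after the start site) were matched for 26 of the 34 members, with 30 promoters. The hexamer was in 6 of the 30 (20%), on either strand, in the genes *Acacb*, *Acadm*, *Acadvl*, *Echs1* and *Plin5*. Of all 32851 promoters of that length, 16.3% held it. The longer ERRα motif TCAAGGTCA was in 0 of the 30 and in 0.423% of all promoters, and a pair of AGGTCA hexamers 1 base apart, the PPAR type of element, was in 0 of the 30 and in 0.0396% of all. A match is only a description of the letters in this window. The 3 promoters with the hexamer on the gene's own strand upstream of the start site are shown as the 250 bases before that site, 5′ to 3′, with the hexamer in capitals.
*Plin5*, chr17:56117549-56117798, minus strand, hexamer beginning 170 bases before the start site: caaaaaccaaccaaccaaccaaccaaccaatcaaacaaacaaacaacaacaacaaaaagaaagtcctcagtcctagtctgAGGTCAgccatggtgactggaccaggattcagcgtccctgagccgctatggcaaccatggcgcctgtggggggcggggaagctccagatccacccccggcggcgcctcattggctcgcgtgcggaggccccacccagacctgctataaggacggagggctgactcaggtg
*Acadvl*, chr11:70015429-70015678, minus strand, hexamer beginning 87 bases before the start site: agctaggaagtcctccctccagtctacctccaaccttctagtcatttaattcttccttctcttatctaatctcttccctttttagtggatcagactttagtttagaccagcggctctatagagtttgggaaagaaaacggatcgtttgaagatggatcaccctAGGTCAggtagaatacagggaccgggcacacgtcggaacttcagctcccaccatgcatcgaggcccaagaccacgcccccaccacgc
*Echs1*, chr7:140116422-140116671, minus strand, hexamer beginning 83 bases before the start site: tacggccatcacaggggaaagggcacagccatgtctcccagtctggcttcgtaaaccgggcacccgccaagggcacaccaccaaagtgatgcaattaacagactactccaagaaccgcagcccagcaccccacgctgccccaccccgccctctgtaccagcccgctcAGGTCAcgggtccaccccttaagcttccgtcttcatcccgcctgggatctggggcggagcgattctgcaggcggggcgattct

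Between 26407125 and 33834238 counts were in a library, and 13 mitochondrially encoded protein genes made up 36.7% to 69.0% of them. The members together took 2.16% to 3.23% of the counts of nuclear genes. Defining cardiomyocyte genes were abundant in all libraries: 10 markers summed to 38810 to 72450 CPM (counts scaled to library size with edgeR's TMM factors). Markers of fibroblasts (10 genes, 507 to 2852 CPM in sum), endothelial cells (10 genes, 338 to 1746 CPM) and macrophages (9 genes, 129 to 660 CPM) were present as well, and none of these 29 was at 0 in a whole group. Clock genes differed between libraries, also within groups. In CPM *Arntl* stood at 10.1, 11.1 and 12.6 in sham saline and 5.47, 8.59 and 1.08 in sham JV101. After nephrectomy it stood at 5.83, 1.58 and 14.8 with saline and 0.92, 10.2 and 0.97 with JV101. The part of clock phase in the differences below was not tested. The libraries sham JV101 1 and NX JV101 2 stand apart. They had the highest fibroblast scores (0.95 and 1.07) and the lowest cardiomyocyte scores (−0.47 and −0.51) of the 12, where a score is the mean log2 CPM of a marker list relative to each gene's own mean. Results are therefore given with and without this pair of libraries, a choice made after the data were seen.

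Levels are given below as TMM-scaled CPM per kilobase of gene length, so that genes can be compared, and the values of a group are listed by replicate number. Of the 34 members, 27 stood at or above the 90th percentile of tested genes by level and 8 at or above the 99th. The order of levels ran from *Fabp3* at 2532 to *Slc27a6* at 0.020, as means over 12 libraries.

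Of the uptake genes, *Fabp3*, the fatty acid binding protein of heart muscle, had the highest level. It stood at 2436, 2416 and 2893 with saline and 2328, 2940 and 2572 with JV101 after sham surgery, and at 3180, 2733 and 2067 with saline and 2181, 2214 and 2420 with JV101 after nephrectomy. All 4 groups overlapped, and both the highest and the lowest value were in NX saline. *Lpl*, lipoprotein lipase, followed at 1128, 815 and 882 with saline and 529, 952 and 1288 with JV101 after sham surgery, and at 927, 775 and 818 with saline and 844, 598 and 735 with JV101 after nephrectomy. Here the extremes were both in sham JV101, and the 2 lowest values belonged to sham JV101 1 and NX JV101 2. *Slc27a1*, the main fatty acid transport protein of muscle, was far lower at 25.2, 19.3 and 20.0 with saline and 9.46, 16.6 and 27.0 with JV101 after sham surgery, and at 15.1, 20.0 and 14.3 with saline and 17.1, 7.99 and 16.9 with JV101 after nephrectomy. Its within-group SD of 0.52 on the log2 scale was the second largest of the members, and the same 2 libraries were again lowest. The acyl-CoA synthetase *Acsl1* had a mean of 72.5 (42.4 to 94.8), and the thioesterase *Acot13*, which releases fatty acids from acyl-CoA, 210.2 (168 to 260). *Plin5*, which coats lipid droplets and tethers them to mitochondria, stood at 32.8, 39.7 and 42.6 with saline and 22.9, 40.4 and 42.6 with JV101 after sham surgery, and at 36.2, 44.6 and 30.2 with saline and 25.0, 25.4 and 26.5 with JV101 after nephrectomy. The 3 NX JV101 libraries lay close together and below all libraries of both saline groups.

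The carnitine genes were lower, and one of them was nearly missing from the counts. *Cpt1b*, the muscle form of the enzyme that commits fatty acids to mitochondrial entry, had only 3 to 37 counts per library. It stood at 0.33, 0.24 and 0.25 with saline and 0.028, 0.34 and 0.28 with JV101 after sham surgery, and at 0.22, 0.28 and 0.28 with saline and 0.11, 0.057 and 0.14 with JV101 after nephrectomy. In an older annotation (GENCODE vM21, on GRCm38), 81.4% of its exon bases are shared on the same strand with *Gm44502*, a predicted gene. *Gm44502* itself had 0 to 6 counts per library and the neighbouring *Chkb* 0 to 4, so few reads from this place were counted under any of the 3 names. Whether shared reads were left out of the counts was not tested. How the authors counted reads that fall in more than one gene is not given in the sources used here, and the level and differences of *Cpt1b* are therefore uncertain. The liver form *Cpt1a* had 586 to 1646 counts. *Cpt2*, the enzyme of the inner membrane, stood at 70.9, 69.0 and 65.7 with saline and 46.1, 66.8 and 67.7 with JV101 after sham surgery, and at 58.0, 57.8 and 46.9 with saline and 50.9, 35.0 and 46.5 with JV101 after nephrectomy. Sham saline and NX saline did not overlap. *Crat*, carnitine acetyltransferase, which buffers acetyl-CoA, stood at 85.1, 67.8 and 71.5 with saline and 42.9, 69.7 and 86.2 with JV101 after sham surgery, and at 62.3, 57.8 and 53.9 with saline and 55.7, 42.3 and 50.8 with JV101 after nephrectomy. Every NX library was below every sham saline library.

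The acylcarnitine carrier *Slc25a20* had a mean of 72.0 (50.5 to 90.5). The carnitine transporter *Slc22a5* stood at 4.99, 5.44 and 4.92 with saline and 5.69, 5.63 and 5.99 with JV101 after sham surgery, and at 4.90, 6.84 and 4.56 with saline and 6.13, 3.71 and 4.78 with JV101 after nephrectomy. Its sham JV101 libraries were above all 3 sham saline libraries, while the NX groups spanned both. Malonyl-CoA is made by *Acacb*, the mitochondrial acetyl-CoA carboxylase, at 32.6, 24.8 and 21.9 with saline and 13.4, 23.3 and 36.6 with JV101 after sham surgery, and at 19.2, 23.1 and 21.0 with saline and 21.2, 13.1 and 19.6 with JV101 after nephrectomy. Sham JV101 alone held the highest value and one of the 2 lowest. Malonyl-CoA is removed by *Mlycd*, malonyl-CoA decarboxylase, at 23.0, 21.6 and 24.0 with saline and 14.9, 18.8 and 24.5 with JV101 after sham surgery, and at 21.6, 22.7 and 20.6 with saline and 18.0, 14.2 and 18.8 with JV101 after nephrectomy. All NX JV101 libraries of *Mlycd* were below all libraries of the saline groups.

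The dehydrogenases of the first step were led by *Acadm*, which acts on medium chains. It stood at 456, 436 and 448 with saline and 303, 480 and 409 with JV101 after sham surgery, and at 464, 332 and 338 with saline and 376, 271 and 354 with JV101 after nephrectomy. The lowest values were again in NX JV101 2 and sham JV101 1. The very-long-chain enzyme *Acadvl* had a mean of 310 (194 to 384) and the long-chain enzyme *Acadl* of 302 (216 to 384). The short-chain enzyme *Acads* was lower, at 76.4, 65.0 and 77.0 with saline and 51.8, 68.0 and 83.4 with JV101 after sham surgery, and at 56.8, 63.6 and 56.2 with saline and 60.5, 65.4 and 57.3 with JV101 after nephrectomy. The sham saline libraries all exceeded those of NX saline, by as little as 65.0 against 63.6. Electrons pass from these enzymes to the flavoprotein of *Etfa* and *Etfb* and to its oxidoreductase *Etfdh*. *Etfb* had a mean of 360 (291 to 430), *Etfdh* of 179 (111 to 220) and *Etfa* of 40.2 (31.8 to 47.5). *Etfa* and *Etfb* encode partners in one protein and were close in CPM (389 and 325), but the files imply a length of 9.68 kb for *Etfa*, so their order per kilobase rests on that length. Of the exon bases of *Etfb*, 58.2% are shared with other genes on its strand in the older annotation.

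Among the later steps *Acaa2*, the mitochondrial thiolase, had the highest level, at 411, 402 and 421 with saline and 270, 403 and 383 with JV101 after sham surgery, and at 398, 310 and 308 with saline and 354, 214 and 293 with JV101 after nephrectomy. The sham saline libraries lay within a narrow band and above every NX library. *Hadha* and *Hadhb*, the subunits of the trifunctional protein that carries out the later steps on long chains, had means of 330 (199 to 410) and 151 (93.2 to 182). *Hadh*, which oxidises shorter hydroxyacyl chains, stood at 271, 232 and 250 with saline and 158, 254 and 250 with JV101 after sham surgery, and at 208, 187 and 181 with saline and 214, 155 and 184 with JV101 after nephrectomy. Its sham saline libraries exceeded all 6 NX libraries. The hydratase *Echs1* had a mean of 149 (117 to 170), the thiolase *Acat1* of 109 (77.5 to 132) and the peroxisomal thiolase *Acaa1a* of 20.8 (16.8 to 26.1). The auxiliary enzymes that handle double bonds were *Eci1* at 141 (112 to 166), *Decr1* at 81.7 (53.2 to 100.4) and *Eci2* at 27.4 (21.3 to 32.1).

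Of the regulators, *Ppara* and *Ppargc1a* had low levels per kilobase. The files imply lengths of 10.43 and 15.95 kb for them, and their place in the order rests on these lengths. In CPM their means were 51.8 and 89.4, beside 103.5 for *Esrra*. *Ppara* stood at 7.20, 5.02 and 5.81 with saline and 2.82, 5.56 and 7.20 with JV101 after sham surgery, and at 4.48, 3.89 and 4.36 with saline and 5.56, 3.41 and 4.32 with JV101 after nephrectomy. Its sham saline libraries were above those of NX saline. *Ppargc1a*, which encodes PGC-1α, stood at 4.54, 12.5 and 7.21 with saline and 2.54, 6.34 and 6.98 with JV101 after sham surgery, and at 4.30, 6.51 and 5.50 with saline and 4.10, 2.72 and 4.05 with JV101 after nephrectomy. Its within-group SD (0.59 on the log2 scale) was the largest of the members, and sham saline 2 alone was far above the rest. *Esrra*, which encodes ERRα, had a mean of 40.1 (28.9 to 58.5).

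**Figure D1:**
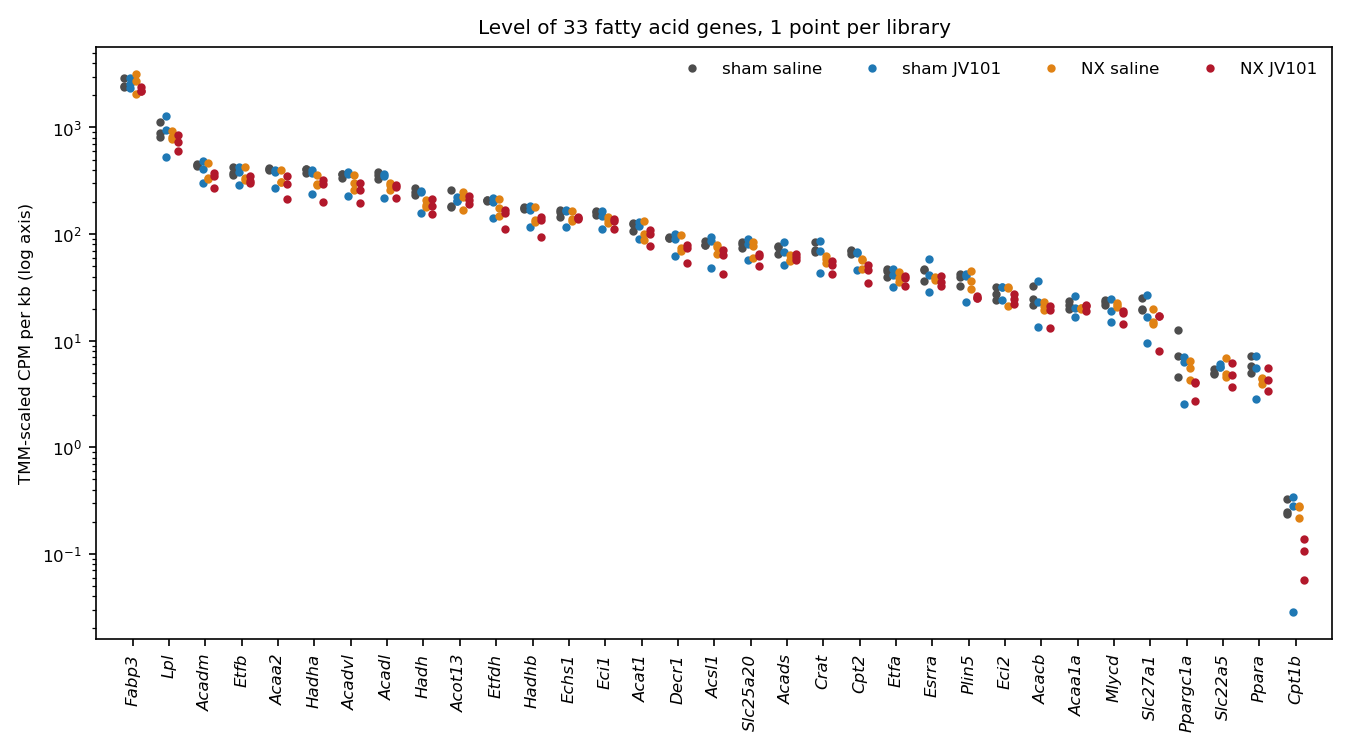
Levels of the 33 tested members in TMM-scaled CPM per kilobase on a log axis, ordered by mean, with 1 point per library and a colour per group. The members span several orders of magnitude, from *Fabp3* at 2532 on average to *Ppara* at 4.97 and *Cpt1b* at 0.21.

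The members varied together from library to library. The median within-group SD was 0.25 on the log2 scale for the members and 0.23 for all genes with at least 10 CPM. For 22 of the 33 tested members the highest library was less than 2 times the lowest, and apart from *Cpt1b* the largest such ratio was 4.92 (*Ppargc1a*). The lowest of the 12 values was in NX JV101 2 for 17 members, in sham JV101 1 for 13 and in NX saline 3 for 3. Shares over all genes were not computed for these counts of ratios and lowest libraries. After group means were removed, the median Pearson r over the 528 pairs of members was 0.71 and 34.5% of pairs exceeded 0.8, against a median of 0.01 and 6.28% over all pairs of genes with at least 10 CPM. These are descriptions over 12 libraries that share the same cells, depth and scaling. The closest pairs were *Hadhb* with *Decr1* (0.992), *Lpl* with *Crat* (0.989) and *Acadm* with *Decr1* (0.987). *Acot13* went least with the others: its r with *Acacb* was −0.29, with *Ppargc1a* −0.13 and with *Slc27a1* −0.13, the 3 lowest of all pairs.

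**Figure D2:**
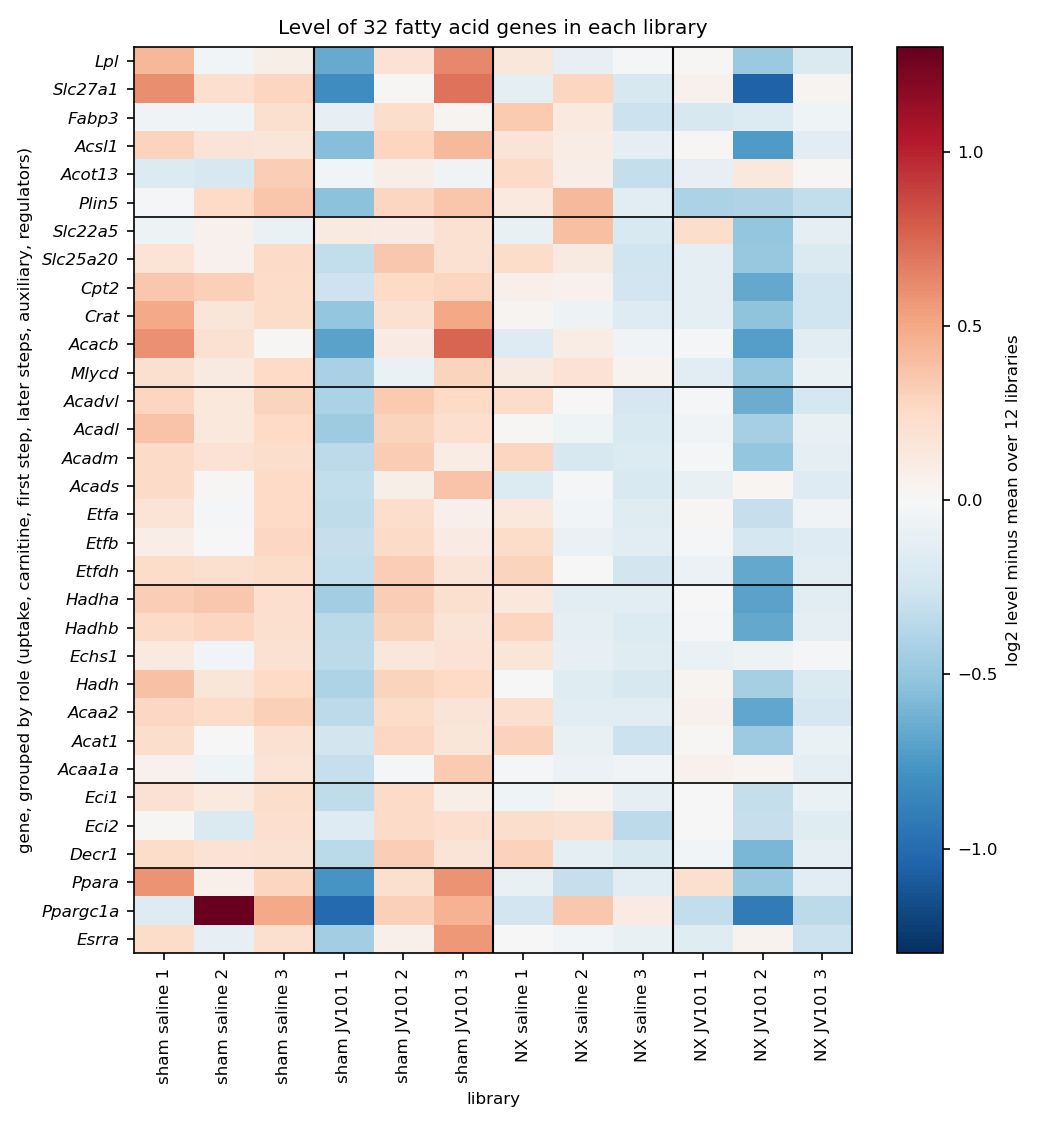
Log2 level of 32 members in each of 12 libraries relative to the gene's mean over libraries, in rows by role and columns by group. *Cpt1b* is left out for its low counts. The columns sham JV101 1 and NX JV101 2 are blue in nearly all rows, while *Ppargc1a* in sham saline 2 is the darkest red cell.

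On TMM-scaled CPM the members' levels followed the cell type markers across libraries. Each of the 33 was related to 5 library measures over 12 libraries (165 relations, permutation tests, Benjamini-Hochberg adjusted). Other genes were not related to these measures, so the counts below have no share over all genes beside them. Whether such relations are particular to the members was not tested. With the fibroblast score, Pearson's r was negative for 32 members (median −0.74), and 23 had an adjusted p under 0.05 (9 by Spearman's rho). With the cardiomyocyte score, a measure added after the data were seen, all 33 were positive (median 0.88), and 25 passed (21 by rho). For *Lpl* and the fibroblast score, r was −0.944 (adjusted p = 0.000495) and rho −0.839 (adjusted p = 0.0116), and r was −0.906 without the 2 libraries farthest from the median score. For *Acsl1* and the cardiomyocyte score, r was 0.955 (adjusted p = 0.00033) and rho 0.888 (adjusted p = 0.00701), and r was 0.898 without the 2 farthest libraries, sham JV101 1 and NX JV101 2. Leaving out the farthest 2 libraries left medians of −0.76 and 0.77 and 16 members past the threshold for each score. Within groups the medians were −0.71 and 0.91. *Acot13* (0.095) and *Slc22a5* (0.37) had the lowest r with the cardiomyocyte score. No member passed for the mitochondrially encoded share of counts (smallest adjusted p = 0.221), for *Pdk4* (0.137), which is induced by fasting, or for the adipocyte score (0.295). These relations depend on the scale. On the deposited FPKM, 0 members passed for the fibroblast score (median r −0.44) and 1 for the cardiomyocyte score (median 0.45). On that scale 25 passed for the mitochondrially encoded share (median −0.78, against 0.06 on CPM). FPKM divides by totals that include the mitochondrially encoded genes, so a fall of nuclear genes with that share is largely built in. In bulk RNA, fewer cardiomyocytes and less RNA of these genes per cardiomyocyte cannot be told apart.

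**Figure D3:**
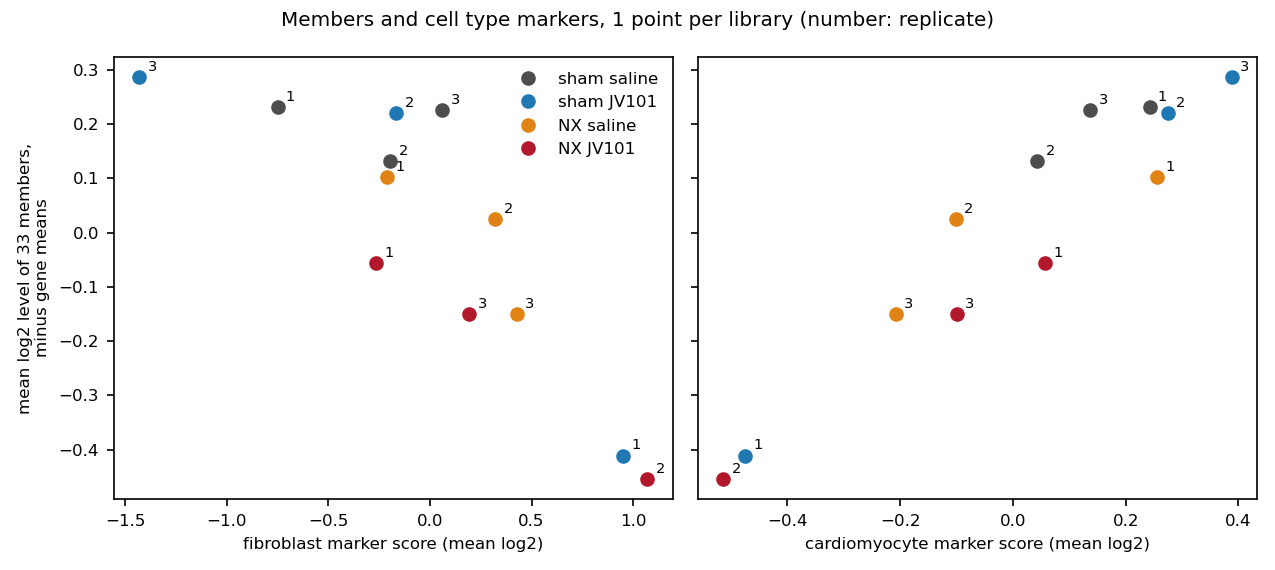
Mean log2 level of the 33 members, relative to each gene's own mean, against the fibroblast score (left) and the cardiomyocyte score (right). There is 1 point per library, coloured by group and numbered by replicate. Sham JV101 1 and NX JV101 2 lie at the lowest member levels (−0.41 and −0.45), at the highest fibroblast and the lowest cardiomyocyte scores.

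A member score was formed like the marker scores, and the cardiomyocyte score was subtracted from it in each library. Both are relative to each gene's own mean, so the differences cancel out over the 12 libraries by construction. They compare groups with each other and say nothing of absolute levels. After sham surgery the difference was 0.055 ± 0.057 with saline and −0.031 ± 0.085 with JV101. After nephrectomy it was 0.011 ± 0.146 and −0.035 ± 0.087 (SD, n = 3 libraries each). The libraries of all 4 groups overlapped on this measure, with −0.15 to 0.13 in NX saline alone.

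The first comparison asks what nephrectomy did to these genes in mice given saline. Most members had lower means after nephrectomy, enzymes of the first and later steps among them, and none passed the test. The log2 difference between NX saline and sham saline was negative in 29 of 33 members, with a median of −0.20, and 47.1% of all 14412 tested genes were negative, with a median of 0.02. By edgeR's quasi-likelihood test no member had an adjusted p under 0.05 (0% of all genes) and 0 had an unadjusted p under 0.05 (3.64% of all genes). That count was 3 when only these 2 groups were fitted (5.93% of all genes) and 7 without sham JV101 1 and NX JV101 2, which are in neither group but enter the estimate of the spread (5.78% of all genes). DESeq2 and limma on log2 FPKM also called 0 members at an adjusted p under 0.05, in this and all other comparisons. Medians by role were −0.10 for uptake, −0.11 for carnitine genes, −0.22 for the first step, −0.24 for the later steps, −0.20 for the auxiliary enzymes and −0.50 for the regulators.

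The smallest p-values in this comparison belonged to *Hadh*, *Cpt2* and *Acads*. *Hadh* stood at 251 ± 19.5 in sham saline and 192 ± 14.4 in NX saline (mean level ± SD, n = 3 libraries), a log2 difference of −0.39 (SE 0.19, edgeR adjusted p = 0.9935). *Cpt2* stood at 68.5 ± 2.60 and 54.2 ± 6.35 (−0.34, SE 0.18, the same adjusted p) and *Acads* at 72.8 ± 6.79 and 58.9 ± 4.09 (−0.31, SE 0.17, the same adjusted p). Of the 33 members, 9 had all NX saline libraries below all sham saline libraries (5.92% of all genes; 10.8% in either direction): *Acaa2*, *Acadl*, *Acads*, *Cpt2*, *Crat*, *Eci1*, *Hadh*, *Hadha* and *Ppara*. *Fabp3* (0.04), *Acot13* (0.03), *Slc22a5* (0.09) and *Eci2* (0.02) had the only positive log2 differences. In the same comparison the median of the 10 cardiomyocyte markers was −0.09 (7 negative) and that of the 10 fibroblast markers 0.48 (0 negative). All 8 atrial markers were negative (median −1.41, median SE 1.10), and all 10 mesothelial (0.36) and all 7 adipocyte markers (1.68, median SE 1.37) were positive. The atrial and adipocyte values are imprecise. In CPM the atrial marker *Sln* stood at 30.9, 1.27 and 72.8 in sham saline and 11.7, 8.51 and 9.21 in NX saline. The adipocyte marker *Adipoq* was near 0, at 0.026, 0 and 0.25 in sham saline and 0.063, 2.13 and 0.54 in NX saline. With the fibroblast score as a covariate, added after the data were seen, the members' median was −0.07. That score comes from the same libraries, so the fit does not assign a part to fibroblasts. The part of each marker list was not tested.

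Under JV101 the nephrectomy difference had the same sign but rested on wider groups. The log2 difference between NX JV101 and sham JV101 was negative in 32 of 33 members (49.4% of all genes), with a median of −0.26. By edgeR no member passed the adjusted test (0% of all genes), and 1 had an unadjusted p under 0.05 (2.07% of all genes). That member was *Cpt2*, at 60.2 ± 12.2 in sham JV101 and 44.1 ± 8.19 in NX JV101, a difference of −0.45 (SE 0.19, edgeR adjusted p = 0.9991). The next were *Plin5* (35.3 ± 10.8 and 25.6 ± 0.79, −0.46, SE 0.22) and *Crat* (66.3 ± 21.8 and 49.6 ± 6.79, −0.42, SE 0.23). No member separated the groups by library (5.11% of all genes in either direction), since sham JV101 1 lay among or below the NX JV101 libraries. Without sham JV101 1 and NX JV101 2, all 33 were negative with a median of −0.33, and 9 had an unadjusted p under 0.05 (7.01% of all genes). Without sham JV101 1 alone, 19 did (13.3% of all genes), with a median of −0.46. The cardiomyocyte markers' median was −0.20 and that of the fibroblast markers 0.35, and with the fibroblast score as a covariate the members' median was −0.12. The atrial markers' median was 1.07 (8 of 8 positive, median SE 1.08), the mesothelial −0.34 (10 of 10 negative) and the adipocyte 3.74 (6 of 7 positive, median SE 1.615). The adipocyte value rests largely on counts near 0. *Adipoq* stood at 0, 0 and 0.030 CPM in sham JV101 and 0.14, 0.28 and 1.72 in NX JV101. All 9 listed adipocyte markers summed to 31.1 to 37.5 CPM in sham JV101 and 33.5 to 53.1 in NX JV101. The part of these and the other marker lists was not tested. On the deposited FPKM the members' median was −0.07 with 24 negative, where all genes had a median of 0.11.

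Averaged over both injections, nephrectomy went with negative log2 differences in 32 of 33 members (48.4% of all genes), with a median of −0.26 and 3 unadjusted p-values under 0.05 by edgeR (4.36% of all genes). These were *Cpt2* (−0.39, SE 0.13), *Crat* (−0.39, SE 0.16) and *Hadh* (−0.32, SE 0.14), each with an adjusted p of 0.8605. The count was 19 without sham JV101 1 and NX JV101 2 (12.4% of all genes), 23 without sham JV101 1 alone (17.9% of all genes) and 1 with the fibroblast score as a covariate (4.03% of all genes), where the median was −0.08. In none of these fits did a member pass the adjusted threshold.

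The comparison of NX JV101 with NX saline asks what JV101 did after nephrectomy. The log2 difference was negative in 30 of 33 members (48.1% of all genes), with a median of −0.21, against 0.01 over all genes. By edgeR no member passed the adjusted test (0% of all genes) and 1 had an unadjusted p under 0.05 (2.39% of all genes). *Plin5*, that member, stood at 37.0 ± 7.22 in NX saline and 25.6 ± 0.79 in NX JV101, a log2 difference of −0.53 (SE 0.22, edgeR adjusted p = 1). *Mlycd* stood at 21.6 ± 1.05 and 17.0 ± 2.46 (−0.35, SE 0.18) and *Cpt1b*, on few counts, at 0.26 ± 0.035 and 0.10 ± 0.041 (−1.36, SE 0.68). Together with *Ppargc1a* these were the 4 members whose NX JV101 libraries all lay below those of NX saline (3.69% of all genes; 8.22% in either direction). *Acads*, *Acaa1a* and *Ppara* had positive differences of 0.04 to 0.06. With sham JV101 1 and NX JV101 2 left out, the members' median was −0.08, with 2 unadjusted p-values under 0.05 (2.89% of all genes). Markers of other cell types differed as well: the 8 atrial markers were all positive (median 1.63), the 10 mesothelial all negative (−1.20) and the 9 mural all positive (0.39). The fibroblast median was 0.30 and the cardiomyocyte median −0.12. With the fibroblast score as a covariate the members' median was −0.17, with 4 unadjusted p-values under 0.05 (4.98% of all genes). The part of each of these lists was not tested. The sign depends on the scale: on the deposited FPKM the median was 0.11, with 5 negative, where all genes had a median of 0.21. That scale divides by totals that include the mitochondrially encoded genes.

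After sham surgery JV101 went with smaller differences of mixed strength. The log2 difference between sham JV101 and sham saline was negative in 28 of 33 members (44.4% of all genes), with a median of −0.14, and 0 had an adjusted or an unadjusted p under 0.05 by edgeR (0% and 1.7% of all genes). The smallest p-values were those of *Ppargc1a* (8.08 ± 4.05 with saline and 5.29 ± 2.40 with JV101, −0.61, SE 0.40), *Mlycd* (22.9 ± 1.18 and 19.4 ± 4.80, −0.24, SE 0.18) and *Acaa2* (411 ± 9.46 and 352 ± 72.1, −0.23, SE 0.21), each with an edgeR adjusted p of 1. *Slc22a5* was the 1 member whose groups did not overlap, and it was higher in sham JV101 (1.76% of all genes; 3.82% in either direction), at 5.12 ± 0.28 and 5.77 ± 0.19. Without sham JV101 1 the median was 0.06, with 9 of 33 negative. On the deposited FPKM it was −0.06, with 22 negative, where all genes had a median of 0.06. The fibroblast markers had a median of 0.38 (10 of 10 positive), the atrial markers of −0.80 (8 of 8 negative) and the mesothelial markers of −0.62 (9 of 10 negative). The atrial value is imprecise (median SE 1.08): the 8 markers summed to 57 to 2103 CPM in sham saline and 71 to 1284 in sham JV101. The part of these lists was not tested. With the fibroblast score as a covariate the members' median was −0.14. Sham JV101 2 or 3 held the highest value of 19 members, a count for which no share over all genes was computed.

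Averaged over both operations, JV101 went with negative differences in 30 of 33 members (45% of all genes), with a median of −0.17 and 1 unadjusted p under 0.05 by edgeR (2.28% of all genes). *Mlycd* was that member (−0.29, SE 0.13, adjusted p = 0.9999), followed by *Ppargc1a* (−0.60, SE 0.28) and *Plin5* (−0.33, SE 0.16). Without sham JV101 1 and NX JV101 2 the median was −0.02, with 18 negative and 0 at an unadjusted p under 0.05 (3.17% of all genes). With the fibroblast score as a covariate it was −0.15, with 31 negative and 7 at an unadjusted p under 0.05 (4.82% of all genes). On the deposited FPKM it was 0.04, with 14 negative, where all genes had a median of 0.14.

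The largest differences were those between the libraries with both nephrectomy and JV101 and those with sham surgery and saline. This comparison shares its libraries with those above and is no separate evidence of their direction. The log2 difference between NX JV101 and sham saline was negative in 32 of 33 members (46.4% of all genes), with a median of −0.44 and only *Acot13* positive (0.02). By edgeR no member passed the adjusted test (0% of all genes, smallest adjusted p of the members 0.7801), and 12 had an unadjusted p under 0.05, all of them lower in NX JV101 (3.45% of all genes lower; 6.21% in either direction). They were *Acaa2*, *Acadl*, *Acadvl*, *Cpt2*, *Crat*, *Etfdh*, *Hadh*, *Hadha*, *Hadhb*, *Mlycd*, *Plin5* and *Ppargc1a*, that is, 3 carnitine genes, 3 genes of the first step, 4 of the later steps, 1 droplet protein and 1 regulator. *Cpt2* stood at 68.5 ± 2.60 in sham saline and 44.1 ± 8.19 in NX JV101, a log2 difference of −0.63 (SE 0.19), or 35.6% less. *Ppargc1a* stood at 8.08 ± 4.05 and 3.62 ± 0.78 (−1.16, SE 0.41), and *Crat* at 74.8 ± 9.09 and 49.6 ± 6.79 (−0.59, SE 0.23). The difference of *Ppargc1a* was −0.69 without sham saline 2, the library with its highest value.

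In 21 of the 33 members every NX JV101 library was below every sham saline library (8.23% of all genes; 18.5% in either direction), and 0 members were separated the other way. Medians by role were −0.42 for uptake, −0.56 for carnitine genes, −0.42 for the first step, −0.45 for the later steps, −0.31 for the auxiliary enzymes and −0.44 for the regulators. The carnitine genes had the lowest median and the auxiliary enzymes the highest. The cardiomyocyte markers had a median of −0.20 (8 of 10 negative) and the fibroblast markers of 0.67 (0 of 10 negative). Their part in the members' difference was not tested. With the fibroblast score as a covariate the members' median was −0.28, with 8 unadjusted p-values under 0.05 (7.4% of all genes). A fit without sham JV101 1 and NX JV101 2 gave a median of −0.31, again with 8 (5.75% of all genes). Leaving out NX JV101 2 alone left 1 member at an unadjusted p under 0.05 (3.98% of all genes), with a median of −0.31. The median on the deposited FPKM was −0.14, where all genes had a median of 0.18.

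**Figure D4:**
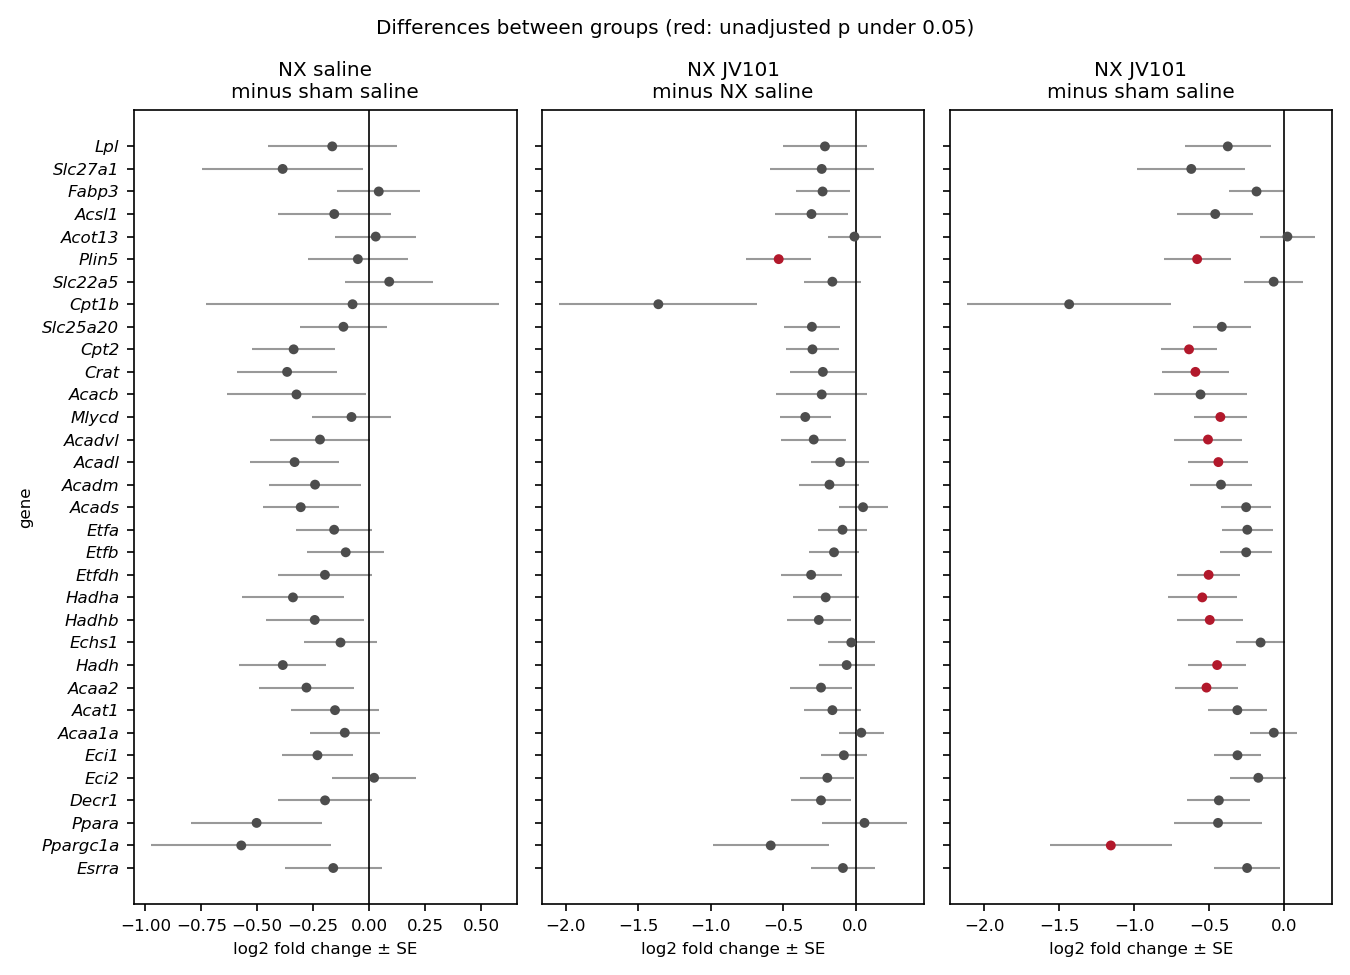
Log2 fold change ± SE of the 33 members in 3 comparisons that share libraries, in rows from uptake genes at the top to regulators at the bottom, red where the unadjusted edgeR p is under 0.05. The points lie left of 0 in 29, 30 and 32 of 33 rows, with 0, 1 and 12 red points.

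**Figure D5:**
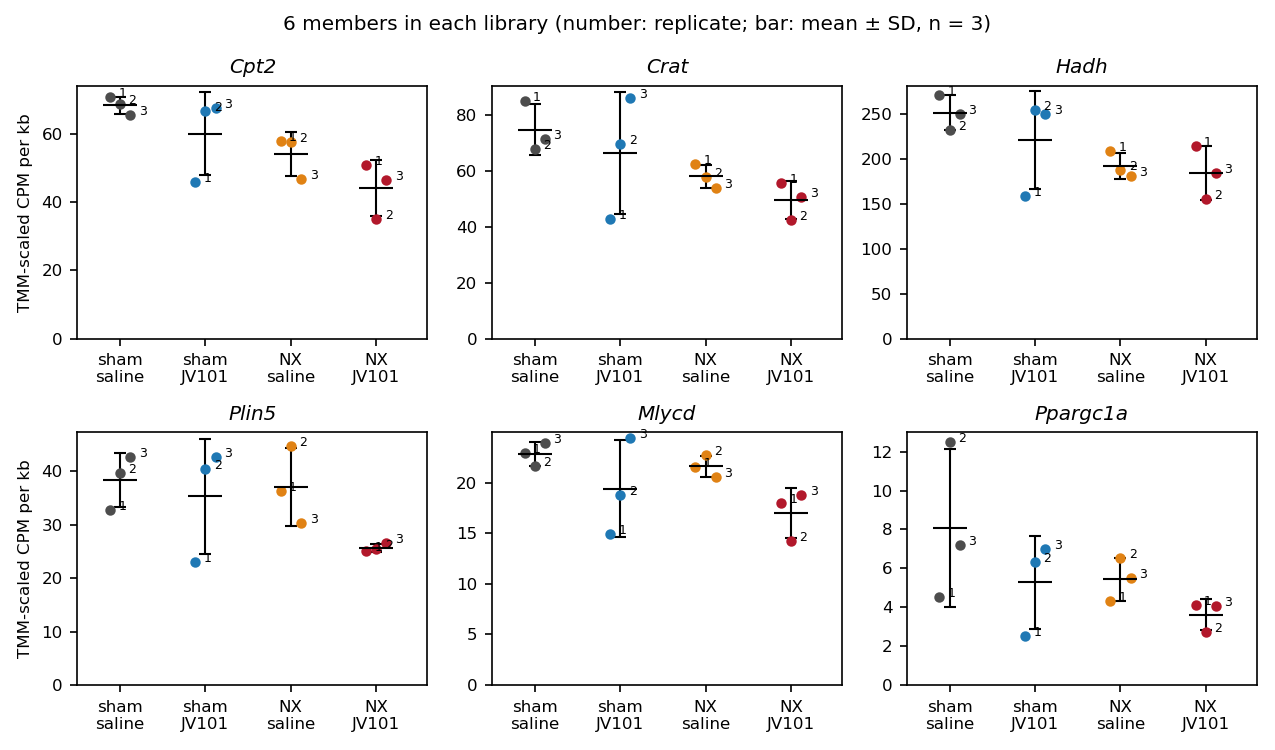
Level in TMM-scaled CPM per kilobase of 6 members in each library, by group, with the replicate number at each point and bars for the mean ± SD (n = 3). *Cpt2*, *Crat* and *Hadh* are highest in sham saline and lower in both NX groups, *Plin5* and *Mlycd* are lowest as a group in NX JV101, and sham JV101 1 is the lowest library of its group in all 6.

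Whether JV101 altered the nephrectomy difference was tested by the interaction. No member passed by edgeR (0% of all genes), and 0 had an unadjusted p under 0.05 (1.78% of all genes). The median interaction was −0.07, with 22 of 33 negative (54% of all genes), and 0.18 on the deposited FPKM, where all genes had a median of 0.14. *Plin5* (−0.41, SE 0.32), *Slc22a5* (−0.33, SE 0.28) and *Cpt1b* (−1.01, SE 0.95) had the smallest p-values, each with an adjusted p of 1. When sham JV101 1 was left out, all 33 were negative, with a median of −0.27 (0.02 over all genes). Without NX JV101 2 the median was 0.05, with 11 negative (median −0.05 over all genes). Without both it was −0.12, with 26 negative (median −0.002 over all genes). The share of negative signs over all genes was not computed for these 3 fits.

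Of 72 further genes in 5 lists (uptake and activation, droplets and lipolysis, other mitochondrial steps, peroxisomal oxidation, other regulators), 70 were tested and none passed the adjusted test in a comparison by edgeR. In NX saline against sham saline 42 of 70 were negative, where the share over all genes was 47.1%, and the medians of the 5 lists in that order were −0.05, −0.00, −0.12, −0.10 and −0.06. In NX JV101 against sham saline 7 of 70 had an unadjusted p under 0.05 (6.21% of all genes), 6 of them lower in NX JV101, and 22 did not overlap between the groups, of which 16 were lower and 6 higher in NX JV101 (18.5% of all genes in either direction). In NX saline against sham saline the 2 with the smallest p were *Acsl3*, an acyl-CoA synthetase (−0.72, SE 0.24), and *Cpt1a* (0.52, SE 0.20). *Cpt1a* was therefore of opposite sign to the inner membrane enzyme *Cpt2*. In NX JV101 against sham JV101 they were *Ppard*, the PPARδ receptor (−0.31, SE 0.17), and *Abcd3*, a peroxisomal transporter (−0.37, SE 0.21).

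In the JV101 comparisons the smallest p-values fell to *Ucp3*, *Acot1* and *Pdk4*, all known to be induced by fasting. After nephrectomy they were *Ucp3*, a mitochondrial carrier of muscle (−1.62, SE 0.55), and *Acot1*, a cytosolic thioesterase (−0.99, SE 0.34). After sham surgery they were *Acot1* (−1.02, SE 0.34) and *Pdk4*, the kinase that restrains pyruvate oxidation (−1.76, SE 0.65). Averaged over both operations, *Acot1* (−1.01, SE 0.24) and *Pdk4* (−1.83, SE 0.46) had edgeR adjusted p-values of 0.9999 each. In CPM *Acot1* stood at 6.04, 15.2 and 11.6 with saline and 4.02, 6.55 and 5.60 with JV101 after sham surgery, and at 6.69, 10.3 and 12.4 with saline and 4.91, 3.96 and 5.83 with JV101 after nephrectomy. Every NX JV101 library was below every library of the saline groups, while 1 sham JV101 library exceeded sham saline 1. The values of *Pdk4* ran from 161 CPM in NX saline 1 to 1603 CPM in NX saline 3, so this group alone spanned the whole range. Apart from *Cpt1b* the members had narrower ranges, and the median of their r with *Pdk4* across libraries was 0.04.

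In the remaining comparisons *Acot1* (−1.15, SE 0.34) and *Acsl3* (−0.80, SE 0.24) had the smallest p in NX JV101 against sham saline, and *Acsl3* (−0.55, SE 0.17) and *Echdc1*, which removes faulty acyl-CoA side products (−0.32, SE 0.13), for nephrectomy averaged over injections. For the interaction they were *Cpt1a* (−0.46, SE 0.28) and *Abcd2*, a peroxisomal transporter (0.82, SE 0.50).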

How the data were processed

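Gene counts and FPKM of 12 libraries were deposited by the authors. Per the labels' protocols, RNA from an RNeasy kit (1.3 µg) went into polyA libraries made by the VAHTS Universal V6 kit. The authors used fastp, HISAT2 and HTSeq with GRCm39, per the submitters' processing notes. Their versions, the gene annotation and the strand setting of the counting are not given in the sources here. The deposited counts are raw counts per gene and were used for every main test. The deposited FPKM were used as an alternative scale and, set against the counts, for gene lengths (largest relative difference between libraries 8.8e-09 over 9643 genes with at least 50 counts).

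Genes were kept by filterByExpr of edgeR (at least 10 counts, 15 in total), leaving 14412 of 22794. One quasi-likelihood model over all 12 libraries, with TMM factors and the 4 groups, gave 8 comparisons by 2-sided F tests, with Benjamini-Hochberg adjustment over all genes and a threshold of 0.05. The SE of a log2 fold change is its size over the square root of F. Relations to library measures used 1e+05 permutations each and log2 of CPM + 0.5. The members and lists were chosen with earlier results of these data known. All members are named. Values in every library are given for *Cpt1b*, *Ppara*, *Ppargc1a*, the 3 members with the highest level, the 3 with the largest spread and the 3 with the smallest p in each comparison. Of other pathway genes, the 2 with the smallest p in each comparison are named with their log2 difference. The tests were tested on simulated data. Totals of 26407125 to 33834238 counts per library limit precision mainly for *Cpt1b* and *Slc27a6*. Alternatives were DESeq2, other scaling factors, other filters, fits of only the groups compared, a replicate block, limma on log2 FPKM, tables stripped of mitochondrially encoded genes, and leaving out each library of the groups compared. Versions were DESeq2 1.42.0, limma 3.58.1, edgeR 4.0.16 and R 4.3.3. Promoters are from RefSeq (GRCm38.p6), which is older than the build of the data, and shared exon bases from GENCODE vM21.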

Additional observations from a re-analysis of the deposited data

How the results depend on the processing

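No member passed an adjusted p of 0.05 under any alternative run, and leaving out each library of the groups compared gave 0 to 0 members called in all 8 comparisons. That was 6 fits for a comparison of 2 groups and 12 for the averages and the interaction. Leaving out single libraries of the other groups, which also enter the estimate of the spread, was not run for comparisons of 2 groups. Counts of members at an unadjusted p under 0.05, counts without overlap and medians of log2 differences moved as follows, with the share of all genes in brackets and, for leaving out each library, its range over the fits.

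NX saline against sham saline: the count was 3 with only the groups compared (5.93%) and 7 without sham JV101 1 and NX JV101 2 (added, 5.78%). Leaving out each library gave 0 to 0 (2.36% to 5.77%), medians of −0.27 to −0.11 and 8 to 19 members without overlap (17.2% to 31.5%), which were 0 on FPKM (3.71%).
NX JV101 against sham JV101: the count was 0 with only the groups compared (1.11%), 0 with a replicate block (1.52%), 0 on FPKM at pseudocounts of 1 (1.38%) and 0.1 (1.52%) and unfiltered (2.29%), and 9 without both libraries (7.01%). Leaving out each gave 0 to 19 (0.701% to 13.3%; 19 without sham JV101 1), medians of −0.46 to −0.15 and 0 to 27 without overlap (7.38% to 33.5%), and 27 without both libraries (42%).
NX JV101 against NX saline: the count was 2 with DESeq2 (2.85%), 3 with only the groups compared (3.1%), 0 on FPKM in all 3 settings (2.53%, 2.22%, 3.35%), 2 without both libraries (2.89%) and 4 with the fibroblast covariate (4.98%). The median was 0.11 on FPKM at pseudocounts of 1 (also unfiltered, 0.11) and 0.1 (0.11). Leaving out each gave 0 to 1 (1.37% to 2.82%), −0.33 to −0.08 and 5 to 11 without overlap (13.5% to 21.4%), which was 1 on FPKM (8.71%).
Sham JV101 against sham saline: leaving out each gave 0 to 1 (0.964% to 6.4%), medians of −0.28 to 0.06 and 1 to 8 members without overlap (8.78% to 19.3%), which were 2 with upper-quartile factors (3.78%), 0 on FPKM (1.24%) and 4 without both libraries (14.1%).
NX JV101 against sham saline: the count was 7 with upper-quartile factors (6.04%), 6 with a replicate block (4.5%) and 0 on FPKM in all 3 settings (4.92%, 4.84%, 4.25%), where medians were −0.14, −0.15 and −0.14. Leaving out each gave 1 to 11 (3.51% to 5.26%; 1 without NX JV101 2), −0.52 to −0.31 and 20 to 28 without overlap (23.2% to 32.2%), which was 1 on FPKM (8.92%).
Interaction: the count was 1 without both libraries (2.49%), and the median on FPKM 0.18, 0.18 and 0.17. Leaving out each gave 0 to 2 (1.08% to 3.71%) and −0.27 to 0.05.
Nephrectomy averaged: the count was 1 with a replicate block (3.23%), 0 on FPKM in all 3 settings (1.6%, 2.05%, 2.21%), 19 without both libraries (12.4%) and 1 with the fibroblast covariate (4.03%). Leaving out each gave 1 to 23 (2.49% to 17.9%) and −0.36 to −0.17.
JV101 averaged: the count was 3 with DESeq2 (2.85%), 0 with upper-quartile factors (2.17%), 0 on FPKM in all 3 settings (1.82%, 1.64%, 2.17%), 0 without both libraries (3.17%) and 7 with the fibroblast covariate (4.82%). Leaving out each gave 0 to 3 (1.61% to 6%) and −0.22 to −0.06.

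On FPKM 25 members were related to the mitochondrially encoded share, 0 to the fibroblast score and 1 to the cardiomyocyte score (16 to the latter on CPM without the 2 libraries farthest from its median). For these counts no share over all genes was computed. For moved values the cause was not tested. Same-numbered replicates did not deviate together (r −0.607 to 0.301, over 0.1 in 6 of 18 pairs), and 1 of 12 libraries correlated best with its own number. With DESeq2, 0 to 8 of all genes passed in a comparison. Depth limits *Cpt1b* (3 to 37 counts) and *Slc27a6*.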
